A study of Homo sapiens with 8 samples.

Results

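A set of 10 regulators of programmed cell death was followed between NELL1 knockout and vector control osteosarcoma cells: the survival genes BCL2, BCL2L1 and MCL1, the effector genes BAX and BAK1, the BH3-only genes BBC3, BCL2L11 and PMAIP1, and the inhibitor of apoptosis genes BIRC2 and BIRC3. They were taken by name from the deposited expression table, where all 10 of 10 were found among 54174 gene symbols and had a value in all 8 libraries. Of the 10, 4 were called changed at an adjusted p under 0.05. BCL2 and BCL2L1 were higher in the knockout libraries, and MCL1 and BBC3 were lower. Among all genes 13.1% were called with a filter on the mean signal and 8.3% without it. The calls were not robust: 0 of the 10 were called when knockout libraries were averaged in pairs. Calls among the 9016 filtered genes fell from 1183 to 108 in that fit, so the loss was not particular to the 10. BCL2 and BCL2L1 each stayed called in only 2 of 8 fits that left out a single library. BIRC3 and its neighbour BIRC2 had their lowest values in knockout libraries 3 and 4.

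Cells commit to the mitochondrial route of apoptosis when BAX or BAK1 proteins open the outer mitochondrial membrane and release cytochrome c, which starts the caspase cascade. BCL2, BCL-XL (the survival product of BCL2L1) and MCL1 hold BAX and BAK1 in check, and the BH3-only proteins PUMA (BBC3), BIM (BCL2L11) and NOXA (PMAIP1) bind the survival proteins and relieve that block. The proteins cIAP1 (BIRC2) and cIAP2 (BIRC3) are ubiquitin ligases of the tumour necrosis factor receptor complex that restrain caspase-8 activation there and degrade the kinase NIK, encoded by MAP3K14.

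All libraries came from the human osteosarcoma line 143B, an established line, collected 48 h after cells had been transiently transfected with plasmid. The 4 control libraries are from cells given vector plasmid, and the 4 knockout libraries are from cells given the NELL1KO plasmid. NELL1 encodes a secreted matrix protein, and the series title asks how it bears on the matrisome and on disease progression. A transfected population can hold cells that took up no plasmid, and the share of edited cells is not given in the sources used here. The series calls the libraries biological replicates without saying whether they are separate cultures, so p-values measure the spread between these libraries.

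The values were taken as quantile normalized log2 signals because each library had the same median of 1.77. A change common to most genes therefore cannot be seen in them. A shift in the kinds of cells cannot be told apart from a change of RNA per cell. Sequencing depth is unknown because no counts are given. NELL1 itself had log2 values of -6.97, -6.97, -4.53 and -5.00 in control libraries 1 to 4 and of -4.82, -5.87, blank and -6.96 in knockout libraries 1 to 4, so the groups overlapped and its transcript did not check the labels. Knockout libraries 1 and 2 lay close together, as did knockout libraries 3 and 4 (SD across genes of the difference within a pair, 0.123 to 0.128). Knockout libraries of different pairs differed by 0.456 to 0.500, against 0.355 to 0.454 between a control and a knockout library. The controls did not split in this way: control library 4 differed by 0.192 from control library 3 and by 0.134 from control library 2. Control libraries 1 and 2 were the closest controls, at 0.102. Part of the pattern was shared between the groups. Deviations from group means correlated at 0.113 to 0.315 between control and knockout libraries when both were from 1 and 2 or both from 3 and 4. Otherwise the correlation was -0.304 to -0.146. Because of the knockout pairs, changes are given over all 8 libraries and within replicates 1 and 2 and replicates 3 and 4. These sets were defined from the data and not by the labels. The p-values within and between them are therefore descriptive and no independent test of a difference. Mesenchymal markers had values in all libraries for 6 of 8 genes, with VIM between 10.2 and 10.9, while COL1A2 had a value in 4 libraries and RUNX2 stayed between 0.048 and 0.43. The blood list had 4 of 5 markers blank throughout, PTPRC, CD3E and HBB among them, while CD68 was at 5.54 to 5.90 in all libraries. Of 5 epithelial markers EPCAM, KRT8 and KRT18 had values in all libraries, KRT8 and KRT18 at 6.52 or above, whereas KRT19 had a value in 6 libraries (-5.72 to -2.85) and CDH1 in 2. The summed linear signal of the mesenchymal list was 1830 to 1940 in the controls and 1260 to 1720 in the knockouts, and that of the epithelial list 535 to 578 and 611 to 702. VIM, the highest mesenchymal marker, was at 10.8 to 10.9 in the controls and 10.2 to 10.7 in the knockouts, while SPARC was higher in the knockouts (6.06 to 6.15 against 5.23 to 5.94) and CDH2 overlapped, so the list did not move as a whole. The part of these markers in the changes below was not tested.

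The knockout effect was estimated with limma over all genes that had a value in every library and a mean log2 value of at least 1. This fit held 9016 genes, 8 of the 10 apoptosis regulators among them. BCL2 and BCL2L11 lay below that mean and were read from the same fit without the filter, over 13943 genes. A gene was called changed at a Benjamini-Hochberg adjusted p under 0.05, which was met by 13.1% of genes with the filter (7.02% higher and 6.1% lower in the knockouts) and by 8.3% without it (4.65% higher and 3.64% lower). Of the 8 regulators in the filtered fit 3 were called, 1 higher and 2 lower, and of the other 2 in the unfiltered fit 1 was called, higher.

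**Figure D1:**
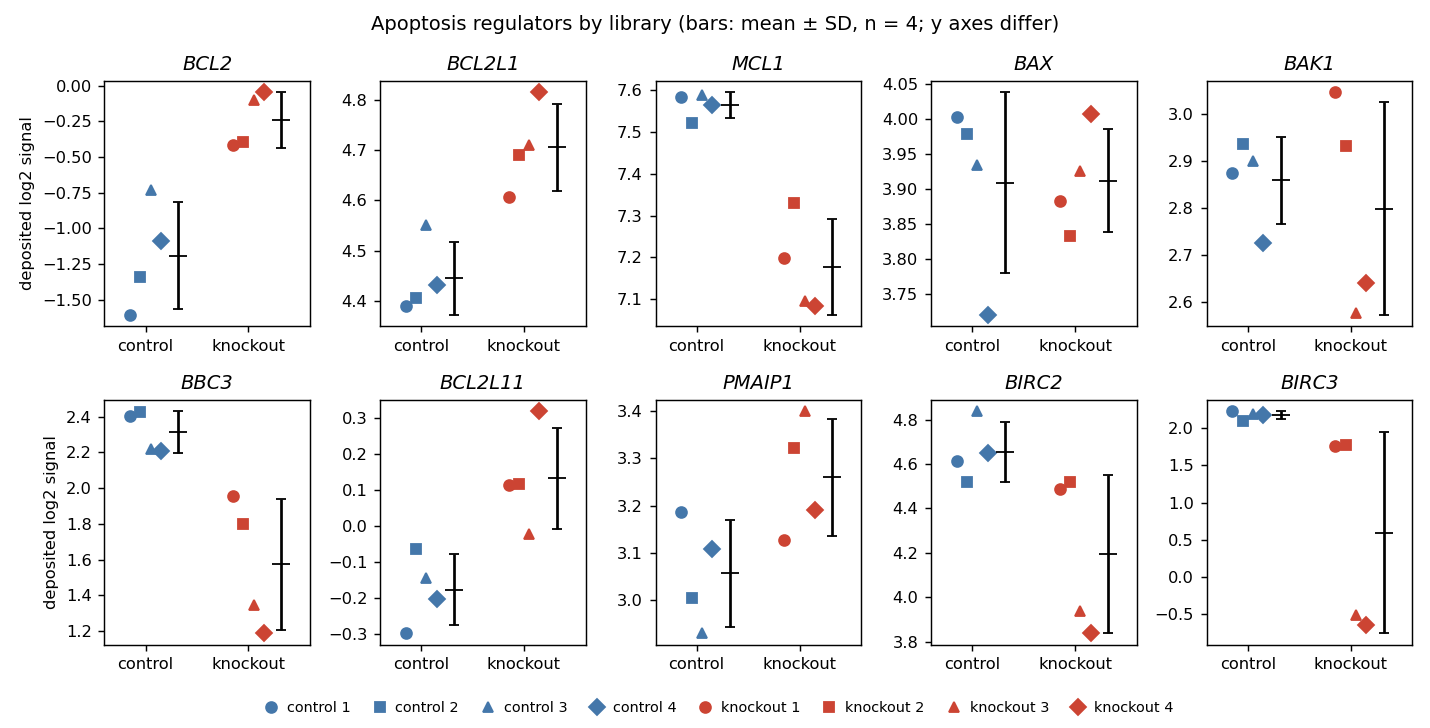
Deposited log2 signal of each apoptosis regulator (y axis, a separate scale for each gene) in the 4 control and 4 knockout libraries, with the replicate number shown by the marker and the group mean ± SD as a bar. BCL2, BCL2L1 and BCL2L11 are higher and MCL1, BBC3 and BIRC3 lower in every knockout library than in any control, and knockout libraries 3 and 4 lie far below knockout libraries 1 and 2 for BIRC3.

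Among the survival genes, BCL2 and BCL2L1 rose and MCL1 fell. BCL2 (GRCh38 chr18:63123346-63320128, minus strand) had log2 values of -1.61, -1.34, -0.73 and -1.09 in control libraries 1 to 4 and of -0.42, -0.40, -0.10 and -0.05 in knockout libraries 1 to 4. All knockout libraries were above all controls, and the control values spread more widely than the knockout values. Its mean went from -1.19 ± 0.37 to -0.24 ± 0.19 (SD, n = 4 each). In the fit without the filter the log2 fold change was 0.95 ± 0.19 (SE), or 1.93-fold (limma adjusted p = 0.0274). A two-sided exact permutation test of the 4 against 4 libraries gave p = 0.0286, which is the smallest it can give. That p is unadjusted and is reached whenever the groups do not overlap, as for 20.4% of genes without the filter. The rise was 1.07 within replicates 1 and 2 and 0.84 within replicates 3 and 4, and the difference between the sets was not called (limma adjusted p = 0.426). Its signal was low, and with 1 added on the linear scale the log2 fold change was 0.36.

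BCL2L1 (chr20:31664452-31723989, minus strand) encodes both BCL-XL and a shorter pro-apoptotic splice form, which a value per gene does not separate. Its log2 values were 4.39, 4.41, 4.55 and 4.43 in the controls and 4.61, 4.69, 4.71 and 4.82 in the knockouts. The groups did not overlap, but the highest control and the lowest knockout were only 0.055 apart. The log2 fold change was 0.26 ± 0.07 (SE; limma adjusted p = 0.0445), and it was 0.25 within replicates 1 and 2, against 0.27 within replicates 3 and 4. Its call was lost with the replicate number as a block (limma adjusted p = 0.0759) and without the filter on the mean (limma adjusted p = 0.0699).

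MCL1 (chr1:150574551-150579738, minus strand), whose protein is short-lived, had log2 values of 7.59, 7.52, 7.59 and 7.56 in the controls and of 7.20, 7.33, 7.10 and 7.08 in the knockouts. The control libraries lay within a narrow band, and every knockout library was below it. The log2 fold change was -0.39 ± 0.07 (SE; limma adjusted p = 0.0126), from 7.57 ± 0.03 to 7.18 ± 0.11 (SD, n = 4 each). It was -0.29 within replicates 1 and 2 and -0.49 within replicates 3 and 4, without a called difference between the sets (limma adjusted p = 0.122).

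The effector genes BAX and BAK1 did not pass the test. BAX (chr19:48954815-48961798, plus strand) had log2 values of 4.00, 3.98, 3.93 and 3.72 in the controls and of 3.88, 3.83, 3.93 and 4.01 in the knockouts, and the groups overlapped across most of their range. Its log2 fold change was 0.0028 ± 0.081 (SE; limma adjusted p = 0.987). BAK1 (chr6:33572547-33580293, minus strand) had log2 values of 2.87, 2.94, 2.90 and 2.73 in the controls and of 3.05, 2.93, 2.58 and 2.64 in the knockouts. Knockout libraries 3 and 4 were the lowest of the 8 and knockout library 1 the highest, so the group means hardly differed, with a log2 fold change of -0.060 with an SE of 0.11 (limma adjusted p = 0.766). Reads from its processed pseudogenes BAK1P1 and BAK1P2 may not be separable from those of BAK1.

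The BH3-only genes went different ways, and BBC3 was the only one of the 3 to pass the test. BBC3 (chr19:47220822-47232766, minus strand), whose product PUMA binds the survival proteins, had log2 values of 2.41, 2.43, 2.22 and 2.21 in the controls and of 1.96, 1.80, 1.35 and 1.19 in the knockouts. All knockout libraries were below all controls, with knockout libraries 3 and 4 the lowest. The mean went from 2.31 ± 0.12 to 1.57 ± 0.37 (SD, n = 4 each), so that the log2 fold change was -0.74 ± 0.17 (SE; limma adjusted p = 0.0258). The fall was larger in replicates 3 and 4 (-0.95) than in replicates 1 and 2 (-0.54), and this difference of -0.41 ± 0.11 (SE) was itself called (limma adjusted p = 0.0170).

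BCL2L11 (chr2:111119378-111168447, plus strand), whose product BIM binds all the main survival proteins, had log2 values of -0.30, -0.06, -0.14 and -0.20 in the controls and of 0.11, 0.12, -0.02 and 0.32 in the knockouts. Every knockout value was above every control value, by a margin of 0.042 at the closest. The log2 fold change was 0.31 ± 0.09 (SE), which did not pass in the fit without the filter (limma adjusted p = 0.0825). A two-sided exact permutation test gave its smallest possible p of 0.0286, which is unadjusted and only restates that the groups did not overlap. For PMAIP1 (chr18:59899948-59904306, plus strand), whose product NOXA binds MCL1, the log2 values were 3.19, 3.00, 2.93 and 3.11 in the controls and 3.13, 3.32, 3.40 and 3.19 in the knockouts. The groups overlapped through knockout library 1 and control library 1, and the log2 fold change of 0.20 ± 0.09 (SE) was not called (limma adjusted p = 0.162).

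Neither inhibitor of apoptosis gene was called over all 8 libraries, and BIRC3 had the largest fold change and the widest knockout spread of the 10 regulators. BIRC3 (chr11:102317450-102339403, plus strand), a classical NF-kappaB target gene, had log2 values of 2.24, 2.10, 2.19 and 2.17 in the controls and of 1.76, 1.77, -0.51 and -0.64 in the knockouts. The controls were nearly equal, knockout libraries 1 and 2 were slightly below them, and knockout libraries 3 and 4 were far below. Over all 8 libraries the log2 fold change was -1.58 ± 0.57 (SE), which did not pass the test although the groups did not overlap (limma adjusted p = 0.102). Within replicates 1 and 2 BIRC3 fell by 0.40 on the log2 scale (limma adjusted p = 0.00184), and within replicates 3 and 4 it fell by 2.76 (limma adjusted p = 1.5e-05). The changes of the sets differed by -2.36 ± 0.10 (SE, limma adjusted p = 7.1e-06). As the sets were defined from these same libraries, the p-values within and between them are descriptive.

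BIRC2 (chr11:102347211-102378670, plus strand) had log2 values of 4.61, 4.52, 4.84 and 4.65 in the controls and of 4.49, 4.52, 3.94 and 3.84 in the knockouts. Knockout libraries 1 and 2 lay at the lower edge of the controls, and knockout libraries 3 and 4 were below every other library. The log2 fold change over all libraries was -0.46 ± 0.17 (SE; limma adjusted p = 0.107). It was -0.063 within replicates 1 and 2 (limma adjusted p = 0.350), and BIRC2 fell by 0.86 within replicates 3 and 4 (limma adjusted p = 9.6e-04). This difference of -0.79 ± 0.11 (SE) between the sets was called as well (limma adjusted p = 8.9e-04).

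**Figure D2:**
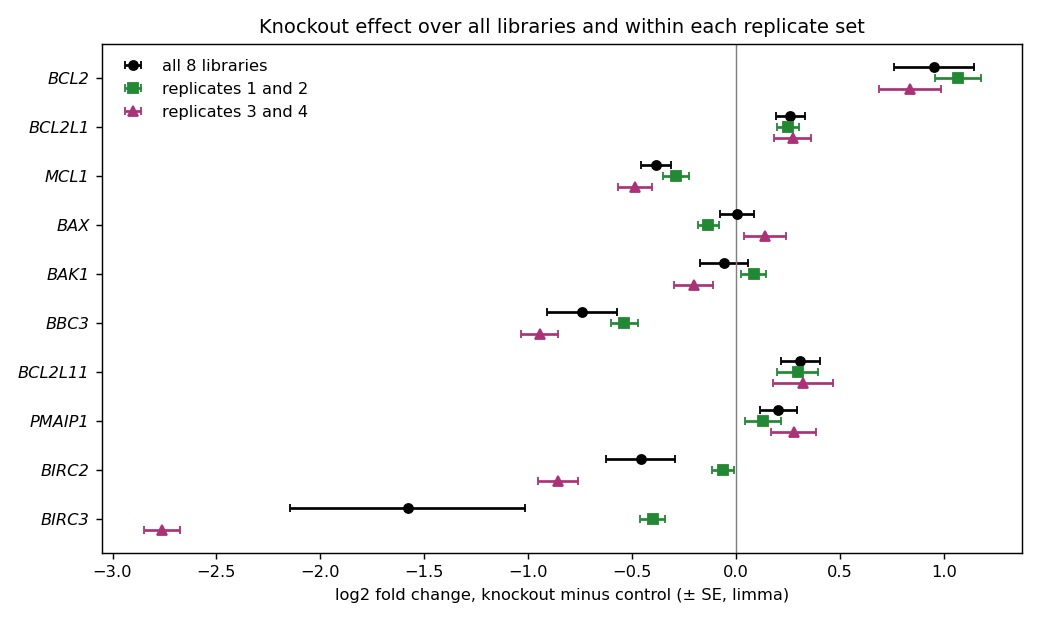
Log2 fold change, knockout minus control, of each apoptosis regulator (x axis, ± SE from limma) over all 8 libraries, within replicates 1 and 2 and within replicates 3 and 4. All regulators but BAX and BAK1 keep their sign in both sets. BIRC3 goes from -0.40 to -2.76 and BIRC2 from -0.063 to -0.86.

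Of the 10 regulators, 3 had a called difference between the replicate sets: BIRC3, BIRC2 and BBC3. Such a difference was called for 41.3% of genes with the filter and for 27.4% without it, so the share among the regulators was near that of all genes. A change was called within replicates 1 and 2 for 59.7% of filtered genes and within replicates 3 and 4 for 33.1%, with 2 libraries per group in each fit. Sign was the same in both sets for 8 of the 10, with BAX and BAK1 as the exceptions. The groups were fully separated for 6 of the 10, which were 3 higher (BCL2, BCL2L1 and BCL2L11) and 3 lower (MCL1, BBC3 and BIRC3) in the knockouts. Among all genes this held for 22.9% with the filter (12.5% higher and 10.4% lower) and for 20.4% without it (11.3% higher and 9.02% lower). With a term for the replicate set, 5 of the 10 were called, BIRC3 being the addition, against 25.2% of filtered genes. For the 8 regulators in the filtered fit the median absolute log2 fold change was 0.32, against 0.16 for all genes in that fit, and the median signed change was -0.22 against 0.0072.

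How far the 4 calls depended on single libraries was examined by leaving out each of the 8 in turn. Among the 9016 filtered genes, 1183 were called with all libraries, and 444, 431 and 391 without control library 1, 2 and 4. Leaving out any other library gave 716 to 1353 calls. MCL1 stayed called in 7 of 8 such fits and was lost without control library 4 (limma adjusted p = 0.0515). BBC3 stayed called in 4 and was lost without control library 1, 2 or 4 or knockout library 3, where its limma adjusted p reached 0.0836. BCL2 and BCL2L1 each stayed called in 2, and were lost without control library 1, 2 or 4 or knockout library 2, 3 or 4, with the highest limma adjusted p at 0.0879 for BCL2 and 0.131 for BCL2L1. When knockout libraries 1 and 2 were averaged to 1 value, and likewise 3 and 4, none of the 10 was called by limma and 7 had an unadjusted p under 0.05. Of the 9016 filtered genes, 108 were called in that fit and 1854 had an unadjusted p under 0.05. The limma adjusted p of the 4 was then 0.0841 for MCL1, 0.0860 for BBC3, 0.174 for BCL2 and 0.181 for BCL2L1.

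A ratio between genes in the same library is not changed by multiplying that library by 1 factor, although quantile normalization can move it, and 9 ratios were formed after the values had been seen, so they are described without a test. Control and knockout libraries were fully separated for 7 of the 9, and overlapped for MCL1 to BBC3 and for BCL2L1 to BAK1. Every ratio holds a regulator whose own groups were fully separated, so this count largely restates the values of the single genes. The share of separated ratios among other gene pairs was not computed. The log2 ratio of MCL1 to BCL2L1 was 3.19, 3.12, 3.04 and 3.13 in the controls and 2.59, 2.64, 2.38 and 2.27 in the knockouts, a shift of -0.65 from MCL1 towards BCL2L1 with no overlap. For BCL2L1 to BAX the ratio was 0.39, 0.43, 0.62 and 0.71 in the controls and 0.72, 0.86, 0.78 and 0.81 in the knockouts. These groups were separated by very little, and the shift was 0.38 in the first set of replicates and 0.13 in the other. The ratio of MCL1 to PMAIP1, the survival gene to the BH3-only gene whose product binds it, was 4.40, 4.52, 4.66 and 4.45 in the controls and 4.07, 4.01, 3.69 and 3.89 in the knockouts, lower in every knockout library than in any control. BIRC3 changed more than BIRC2, with a log2 ratio of -2.38, -2.42, -2.65 and -2.47 in the controls and of -2.72, -2.75, -4.45 and -4.48 in the knockouts. The other separated ratios were BCL2 to BAX (0.95 higher), BCL2L11 to BBC3 (1.05 higher) and MCL1 to BAX, which fell by 0.39.

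BIRC3 and BIRC2 are adjacent genes read in the same direction on chromosome 11, with 7807 bases between them. The bases just before each start are shown because the neighbours fell together in knockout libraries 3 and 4 while only BIRC3 carried matches to the kappaB consensus, the sequence that NF-kappaB dimers bind (GGG, a purine, any 2 bases, 2 pyrimidines, CC; either strand). They are RefSeq sequences of GRCh38.p14 on the plus strand, cut so as to end before the first annotated transcript start, and capitals mark kappaB consensus matches.
BIRC3, chr11:102317234-102317449: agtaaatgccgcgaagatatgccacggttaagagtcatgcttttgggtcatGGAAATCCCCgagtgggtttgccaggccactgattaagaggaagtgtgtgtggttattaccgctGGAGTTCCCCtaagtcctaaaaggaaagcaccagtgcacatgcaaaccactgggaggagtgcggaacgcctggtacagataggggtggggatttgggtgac
BIRC2, chr11:102346964-102347210: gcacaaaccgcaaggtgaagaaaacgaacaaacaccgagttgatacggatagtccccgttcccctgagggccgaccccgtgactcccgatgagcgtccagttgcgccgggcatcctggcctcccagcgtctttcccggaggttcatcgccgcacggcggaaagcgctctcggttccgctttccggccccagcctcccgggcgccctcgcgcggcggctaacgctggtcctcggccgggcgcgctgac

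Promoter windows of 300 bases were found in RefSeq for 9 of the 10 genes. Searched on both strands, the kappaB consensus matched in 1 of these 9 genes, BIRC3, at positions -199 to -190 and -135 to -126 from the RefSeq start, against 11.3% of 35116 promoter windows in all. The cyclic AMP response element TGACGTCA, which CREB and ATF proteins bind, was present only for BIRC2, where it spans the start of 1 RefSeq entry, against 1.85% of all windows. The E-box CACGTG, bound by MYC and related factors, occurred in BAX at 4 places and in BBC3 at 1 place, against 7.26% of all windows. None of the 3 motifs overlapped another in these genes. These are matches of letters and do not show that a factor binds there.

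Other genes around the pair were compared to see whether the fall in knockout libraries 3 and 4 extended beyond it. Within 500000 bases on either side GENCODE lists 16 protein-coding genes with the pair included, of which 6 were in the filtered fit. YAP1, the transcriptional coactivator of the Hippo pathway upstream of BIRC3, changed by -0.29 in replicates 1 and 2 and by -0.20 in replicates 3 and 4. TMEM123, a membrane protein gene next to BIRC2, changed by 0.20 and -0.16. The matrix protease genes MMP10 and MMP1 fell in both sets but less in replicates 3 and 4, MMP10 from -1.89 to -0.77 and MMP1 from -1.03 to -0.71. Over all 8 libraries YAP1, MMP10 and MMP1 were called lower, at -0.25, -1.33 and -0.87 (limma adjusted p = 0.0407, 0.00979 and 0.00673). TMEM123 was not called over all libraries, at 0.018 (limma adjusted p = 0.937). The difference between the sets was called for MMP10 and TMEM123 (limma adjusted p = 0.00465 and 0.0287) and not for MMP1 or YAP1 (0.182 and 0.529).

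**Figure D3:**
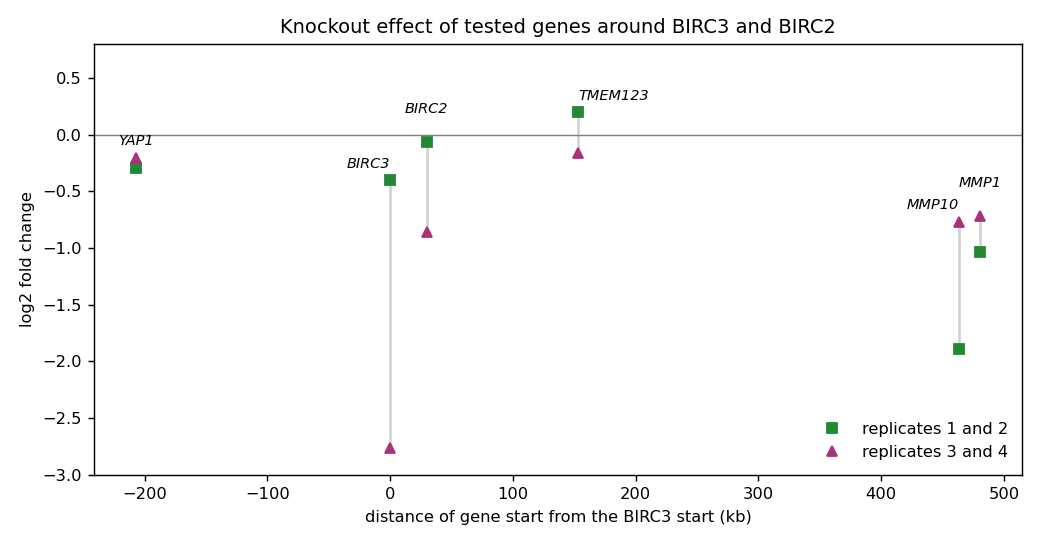
Log2 fold change, knockout minus control, of the 6 tested protein-coding genes around BIRC3 (y axis) against the distance of each gene's start from that of BIRC3 (x axis, kb), within replicates 1 and 2 (squares) and within replicates 3 and 4 (triangles). BIRC3 and BIRC2 have their larger fall in replicates 3 and 4, at -2.76 and -0.86, while MMP10 and MMP1 have theirs in replicates 1 and 2.

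The wider apoptosis machinery was read from 10 gene lists, and 53 listed genes other than the 10 regulators were in the filtered fit. Of these, 16 were called (30.2%, against 13.1% of all genes), 4 higher and 12 lower. The lists were chosen with earlier results of these libraries known, so the higher share is no independent support for a change of this machinery. When libraries were left out in turn, 7 of the 16 were called in all 8 fits (TNFRSF10B, FADD, NFKBIA, RELB, ICAM1, CDKN1A and FDXR). Leaving out control library 1, 2 or 4 left 7 of them called in each case, and leaving out knockout library 3 left 9.

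Of 11 tested relatives of the regulators, in the BCL2 family, the inhibitor of apoptosis family and its antagonists, 1 was called (9.1%, against 13.1% of all genes). The other tested survival genes BCL2L2 and BCL2A1 were not called, with log2 fold changes of -0.073 and -0.59 (limma adjusted p = 0.684 and 0.0876), but BCL2A1 was called with the replicate block (limma adjusted p = 0.0195). Of the other tested BH3-only genes BID, BAD and BMF, limma called BAD alone, which rose by 0.38 (adjusted p = 0.0324) and was not called with the block (adjusted p = 0.0572). BMF went in opposite directions in the replicate sets, at -1.04 in replicates 1 and 2 and 0.30 in replicates 3 and 4. The third effector BOK and the other inhibitor genes XIAP, BIRC5 and BIRC6 were not called by limma, and of these 4 genes 1 had an unadjusted p under 0.05. DIABLO and HTRA2, whose mitochondrial products antagonise the inhibitor of apoptosis proteins, were not called either, and neither had an unadjusted p under 0.05.

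Falls and no rise were called among the caspases and the death receptor branch. In the caspase and apoptosome list CASP6, an executioner caspase, fell by 0.43, and CASP8, the initiator of the death receptor pathway, fell by 0.28. Their limma adjusted p-values were 0.0398 and 0.0196, and with the replicate block CASP8 was at 0.0506. The list median was -0.021, against 0.0072 over all tested genes. Of 9 tested genes of the death receptor list 3 were called, all lower: the adaptor FADD (-0.36) and the TRAIL receptors TNFRSF10B (-0.36) and TNFRSF10A (-0.35), with limma adjusted p-values of 0.00868, 0.0103 and 0.0214. This list had a median of -0.16. MAP3K14, which encodes the kinase NIK, had a log2 fold change of 0.013 and was not called (limma adjusted p = 0.956).

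NF-kappaB target genes, the list that holds BIRC3, had the lowest median of the 10 lists at -0.59, and 6 of 11 tested genes were called, 5 lower and 1 higher. RELB and NFKB2, which encode the non-canonical NF-kappaB subunits, fell by 1.65 and by 0.91 (limma adjusted p = 0.00427 and 0.0176). ICAM1, an adhesion receptor, fell by 1.54, and NFKBIA, the inhibitor made in feedback to NF-kappaB activity, fell by 1.00 (limma adjusted p = 0.00133 for each). NFKB1 was the fifth fall, at -0.51, and was not called with the replicate block (limma adjusted p = 0.0545). SOD2 was the rise, at 0.45, and both were named after their values had been seen. Like BIRC3, RELB and NFKBIA fell further in replicates 3 and 4 (-2.04 and -1.22) than in the other set (-1.26 and -0.78), and the difference was called (limma adjusted p = 8.3e-04 and 0.0103). ICAM1 changed by -1.56 and -1.52, with no called difference (limma adjusted p = 0.893). These genes and the fall of several of them were known from earlier results on the same libraries, so the list is no independent support for the change of BIRC3.

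**Figure D4:**
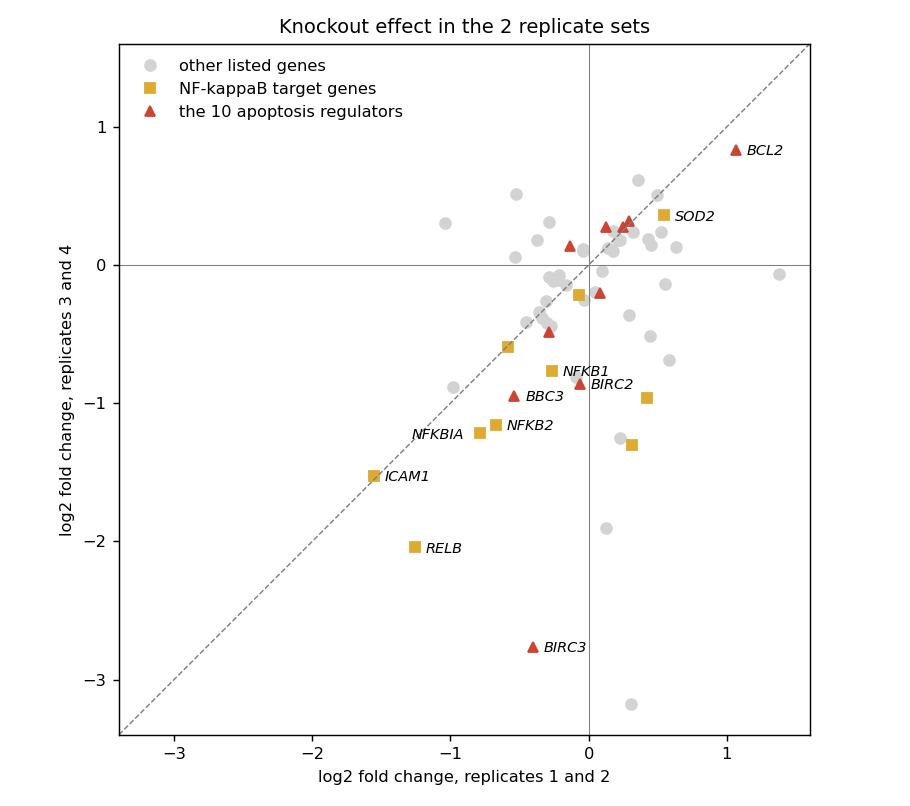
Log2 fold change within replicates 1 and 2 (x axis) against that within replicates 3 and 4 (y axis) for the 10 apoptosis regulators (triangles), the tested NF-kappaB target genes (squares) and the other tested genes of the lists (circles), with the dashed line marking equal change. BIRC3 lies far below the line, RELB, NFKBIA, NFKB2 and NFKB1 lie below it, and ICAM1 lies on it at about -1.56 and -1.52.

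Other called genes of the lists went in both directions. CDKN1A, which encodes the cell cycle inhibitor p21, went from 5.05 ± 0.04 to 4.12 ± 0.10 (SD, n = 4 each), a fall of 0.93 log2 units (limma adjusted p = 7.9e-04). FDXR, the ferredoxin reductase gene, rose by 0.50 (limma adjusted p = 0.00696). Among the 7 tested genes listed as regulators of BH3-only genes, E2F1 alone was called, with a rise of 0.28 (limma adjusted p = 0.0248), and it was not called with the replicate block (limma adjusted p = 0.0538). DDIT3, the stress factor CHOP that can induce BCL2L11 and BBC3, changed by 0.31 in the first set and by -3.18 in replicates 3 and 4, and that difference was called (limma adjusted p = 1.3e-04).

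Tested genes whose values followed each called regulator most closely over the 8 libraries were found by Pearson correlation, from the closest 3. BCL2 was followed most closely by MUL1 (r = 0.993), CCDC115 (0.991) and ZWINT (0.991), and BCL2L1 by ANKRD18B (0.991), FDPS (0.987) and RAB27A (0.986). For MCL1 they were TRIM21 (0.994), PCED1A (0.993) and PPP2R5D (0.992), and for BBC3 they included SLC37A3 (0.989) and MAPK14 (0.987). These are descriptions over 8 libraries that fall into 2 groups and, among the knockouts, close pairs. The genes were picked as the highest among all tested genes, and no gene was among the closest 3 for more than 1 regulator.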

How the data were processed

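RNA of 8 libraries of the 143B cell line was sequenced from TRIzol extracts with a stranded total-RNA kit, per the labels' protocols. The authors deposited 1 table of log2 values per gene symbol. The submitters' processing notes name bcl2fastq, Partek 7.0 and GRCh38, while the aligner, the counting program, the annotation and the unit before the logarithm are not given in the sources used here. Base 2 was inferred from the range of values (-10.5 to 12.1). Each library had the same median of 1.77, so the deposited log2 values were taken as quantile normalized, with values for 14911 to 15171 genes per library. Blank cells were treated as missing. Columns were matched to samples by description label and groups taken from titles.

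Genes were fitted with limma 3.58.1 in R 4.3.3 (no trend, no covariate), with Benjamini-Hochberg adjustment over all genes of the fit, after a test on simulated data. Alternatives were a replicate block, a batch term for the replicate sets, libraries averaged within the sets, other filters, scalings, a pseudocount of 1, and leaving out each library. The interaction of group with replicate set was added after the data had been seen. The replicate block pairs control and knockout libraries by number. Same-numbered libraries deviated together across genes (correlation of deviations from group means, 0.195 to 0.289 over 4 pairs, mean 0.249). Control and knockout libraries of different sets deviated in opposite directions (-0.304 to -0.146, mean -0.24). Those of different numbers in the same set deviated together about as much as same-numbered ones (0.113 to 0.315, mean 0.231). The values therefore do not show a pairing by number, and the block is given as an alternative only. Exact permutation tests used SciPy 1.17.1. Members and lists were chosen with earlier results of these data known. Named genes are the 10 regulators, the 3 closest genes by correlation for each called one, and up to 4 called genes per list by size of change; other genes were named after their values were seen. Coordinates come from GENCODE 29. Of the 10 genes, 5 overlap an annotated antisense gene, none of which had a value, and whether counting used strand is not given in the sources used here. Some genes of the lists are not reported here.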

Additional observations from a re-analysis of the deposited data

How the results depend on the processing

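Of 9016 tested genes, 1183 were called. The count was 729 with a mean of at least 3, 272 at an adjusted p under 0.01, 2274 with the batch term, 108 with knockout pairs averaged, 0 with pairs averaged in both groups (limma; 706 at an unadjusted p under 0.05), 5380 in replicates 1 and 2, 2987 in replicates 3 and 4, and 391 to 1353 when 1 library was left out. With the replicate number as a block it was 924. Of the 10 regulators 4 were called, against 3 with the replicate block, where BCL2L1 was no longer called. A mean of at least 3 gave 2 calls, an adjusted p under 0.01 gave 0, averaging knockout pairs 0 and averaging pairs in both groups 0 (limma; 8, 7 and 3 regulators at an unadjusted p under 0.05), and leaving out 1 library 0 to 4. Of the 9016 genes, 2675 in the main fit, 1854 with knockout pairs averaged and 706 with pairs averaged in both groups had an unadjusted p under 0.05. Over all alternatives the 10 log2 fold changes gave 193 values, of which 153 kept direction and side of the threshold, 28 lost and 4 gained a call, and 8 changed sign. All sign changes were in genes that were not called: BAX was -0.0013 with a further quantile normalization, -0.0041 with median centring, -0.13 in replicates 1 and 2 and -0.060 to 0.034 with 1 library left out, and BAK1 was 0.084 in replicates 1 and 2 and -0.14 to 0.014 with 1 library left out. The cause of these shifts was not tested. BIRC3 passed with the batch term (adjusted p = 0.0270). Depth is unknown, so the counting error of low signals such as BCL2 could not be estimated.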
